A study of Mus musculus with 4 samples.

Results

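The 41 genes described here encode the machinery that licenses and fires replication origins and copies the DNA, together with a pair of E2F transcription factors that switch such genes on. They form a functional group. For each gene, the probe set with the highest mean signal over the 4 arrays was taken, among those that the platform annotation gives to that gene alone. All 41 had such a probe set, out of 18193 genes with one, and all 41 were among the 10679 genes that exceeded a signal floor of 100.001 on at least 1 array. Of the 41, 40 exceeded the floor on all 4 arrays and E2f2 on 3.

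The samples are p53-/- mouse fetal liver progenitors in 4 cultures, with 1 Affymetrix array each. One culture was non-transformed. The labels give each of the others 1 transforming factor: H-RasV12 (a constitutively active H-Ras GTPase), myr-Akt (myristoylated AKT1, which the added lipid holds at the membrane) or c-Myc (a growth-promoting transcription factor). All 4 groups lack p53, the non-transformed cells included, and per the labels' protocols all grew with EGF at 20 ng/ml and HGF at 50 ng/ml in 10% serum, so the control is itself a dividing culture kept in growth factors. The sources used here do not say whether a culture came from 1 clone or from pooled cells, nor its passage or density. Because each group holds 1 array, no spread between cultures and no p-value can be had, and every difference is one between arrays.

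Copying the genome starts with licensing. In late mitosis and early G1 the origin recognition complex, with Cdc6 and Cdt1, loads the ring-shaped MCM2-7 helicase onto DNA in an inactive form. At the start of S phase the kinases Cdc7-Dbf4 and CDK turn it on by adding Cdc45 and the GINS complex, and primase and the polymerases follow, held on DNA by the PCNA clamp. Most of these genes are transcribed in waves controlled by E2F factors, so their RNA in a whole culture is a familiar correlate of how many cells are cycling. The liver progenitors of the fetus divide rapidly, while most adult hepatocytes are quiescent.

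A check of the labels and markers comes first. The only Myc probe set gave 2285 for non-transformed cells, 1747 for H-RasV12, 639.7 for myr-Akt and 420.6 for c-Myc. The c-Myc culture thus had the lowest Myc signal. The sources used here do not say whether this probe set detects the introduced sequence, so each direction for c-Myc below is that of the array labelled c-Myc. Akt1, by the brightest of its 4 probe sets, gave 1870 for non-transformed cells, 2760 for H-RasV12, 2834 for myr-Akt and 2991 for c-Myc. This signal was highest on the c-Myc array and does not single out the myr-Akt array. Hras and Trp53 had no probe set that the annotation gives to that gene alone. Neither the H-RasV12 label nor the lack of p53 could therefore be checked in this way. Of 10 hepatoblast and hepatocyte markers, 4, 8, 3 and 3 exceeded the floor on the non-transformed, H-RasV12, myr-Akt and c-Myc arrays, with summed signals of 7232, 10531, 5241 and 7341. They did not move together. Alb and Afp, defining products of hepatoblasts, were above the floor on the H-RasV12 array alone, with signals of 167.6 and 568.3. Foxa2 (2821, 4169, 3082 and 1472), Dlk1 (116.7, 262.4, 145.1 and 1898) and Gpc3 (3576, 311.6, 1890 and 3904) were above it on all 4, and Gpc3 was lowest on the H-RasV12 array. Of 7 biliary and epithelial markers, 7, 6, 4 and 3 exceeded the floor, with summed signals of 8848, 19593, 2552 and 3931. Of 6 mesothelial markers, 6, 4, 6 and 6 did, with summed signals of 33315, 6300, 25462 and 24943. Of 8 stellate and fibroblast markers, 7, 7, 6 and 5 did, with summed signals of 96819, 40519, 51290 and 52200. Of 5 erythroid markers, which would reveal the fast-dividing blood precursors of fetal liver, 0 exceeded the floor on 3 arrays and 1, Epor, did on the H-RasV12 array, at 120.4. Of 6 endothelial markers, 0 exceeded the floor on any array. Of 7 other haematopoietic markers, 1, 1, 1 and 0 did: Cd34 on the non-transformed array (540.5) and Csf1r on the H-RasV12 (145.4) and myr-Akt (119.1) arrays, while the leukocyte marker Ptprc lay at 5.1 or below. The beta-actin 5′ to 3′ signal ratio lay between 0.846 and 0.907.

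Promoter sequences of the group are shown first because many of them share a letter pattern. Most of these genes are controlled by E2F factors, as said above, so the choice of genes and the E2F pattern are not independent. RefSeq promoter windows (mouse build GRCm38.p6, 250 bases before to 50 after the start site) were at hand for 32 of the 41 genes. Each was searched on both strands for the E2F sites TTTCCCGC, TTTCGCGC, TTTGCCGC and TTTGGCGC, and matches may overlap. Of the 32, 14 held at least 1 match (43.8%), against 704 of 27025 gene symbols with a window (2.605%) and 441 of the 8725 measured genes with one (5.05%). The matched stretch of each of these 14 genes follows, 5′ to 3′ in the direction of transcription, with the matched letters in capitals and up to 9 flanking bases. Where a gene has several separate matches the first is shown, and a match is a description of letters, not evidence of binding. In the Rfc3 line the flank runs into its next match, which is cut off there and left in lower case.
Mcm3, chr1:20820277-20820302, minus strand: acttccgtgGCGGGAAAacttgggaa
Mcm5, chr8:75109347-75109376, plus strand: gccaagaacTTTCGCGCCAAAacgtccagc
Mcm6, chr1:128359795-128359824, minus strand: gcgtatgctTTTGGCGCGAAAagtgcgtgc
Mcm7, chr5:138172032-138172057, minus strand: tttcgaaccGCGGGAAAcagggtgtc
Orc1, chr4:108579418-108579443, plus strand: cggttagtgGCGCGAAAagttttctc
Cdc6, chr11:98908004-98908029, plus strand: cggtggagaGCGGGAAAtcgcctggg
Cdt1, chr8:122568038-122568063, plus strand: aactaccttTTTGGCGCcatggcgca
Gins3, chr8:95633509-95633534, plus strand: gagtgcggcGCGGGAAAgcgagtttg
Pola1, chrX:93632277-93632302, minus strand: catcacaggGCGCCAAAtgcactccc
Pole2, chr12:69228164-69228189, minus strand: tcggcggtgGCGCCAAAtcgcgaaca
Pold1, chr7:44548766-44548785, minus strand: tatcttgtgGCGGGAAAagc
Rfc3, chr5:151651202-151651227, minus strand: gtcgcacgcTTTCGCGCtcgcgggaa
Lig1, chr7:13278843-13278868, plus strand: ccaaagtgcGCGCGAAAtctgtgtgg
E2f2, chr4:136172304-136172323, plus strand: ggcatatagTTTGGCGCtaa

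In all there were 20 matches, 11 before the start site and 9 after it, and they lay between 165 bases before and 47 bases after the start. Mcm5 and Mcm6 each carried a pair of overlapping matches on opposite strands, which read as 1 longer capital run in the lines above. Mcm6 held a further match nearer the start. The 150 bases before its start (chr1:128359706-128359855, minus strand) are given with those of Orc1 (chr4:108579304-108579453, plus strand) and Cdc6 (chr11:98908001-98908150, plus strand), since these 3 genes show a cluster, a match close to the start and a match far from it.
Mcm6: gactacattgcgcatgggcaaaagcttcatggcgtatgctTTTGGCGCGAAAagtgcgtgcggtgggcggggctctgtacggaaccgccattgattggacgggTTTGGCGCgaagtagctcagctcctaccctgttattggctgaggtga
Orc1: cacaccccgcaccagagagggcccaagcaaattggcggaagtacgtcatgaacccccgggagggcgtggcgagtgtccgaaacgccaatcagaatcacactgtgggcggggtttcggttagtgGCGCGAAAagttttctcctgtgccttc
Cdc6: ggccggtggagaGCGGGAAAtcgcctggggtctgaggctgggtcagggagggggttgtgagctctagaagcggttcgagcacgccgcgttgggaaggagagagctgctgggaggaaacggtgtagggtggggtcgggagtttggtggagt

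**Figure D1:**
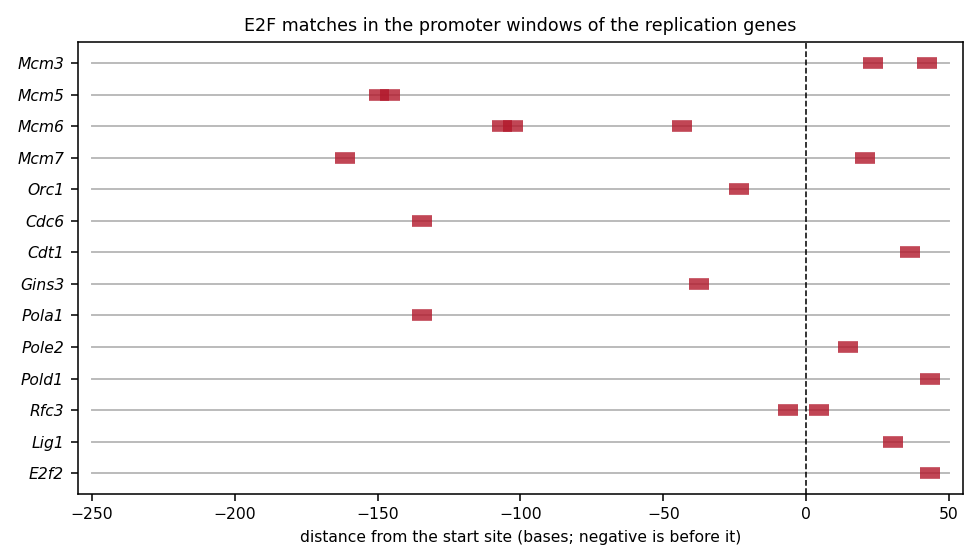
Positions of E2F matches (red bars) in the RefSeq promoter windows of the 14 replication genes with at least 1 match; the horizontal axis is the distance in bases from the start site (dashed line), negative before it. The 20 matches lie within 165 bases before and 47 bases after the start.

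Other promoter elements were less unevenly spread. The CCAAT box (CCAAT) was found in 19 of the 32 windows (59.4%), against 41.1% of all gene symbols and 43.4% of the measured genes. The CHR element of late cell-cycle genes (TTTGAA or TTCGAA) was in 9 of 32 (28.1%), against 21.7% and 15.9%. The E-box bound by MYC and its relatives (CACGTG) was in 5 of 32, namely Pola2, Rfc1, Rpa1, Fen1 and Lig1 (15.6%, against 8.09% and 12.2%). Of the group, Mcm4, Gmnn, Gins1, Gins2, Gins4, Prim2, Pole, Rfc2 and Tipin had no window in the table.

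Across the 41 genes, signals on all 3 transformed arrays lay mostly above those of non-transformed cells, by an amount short of 2-fold for most genes. The median log2 difference was 0.48 for H-RasV12, 0.80 for myr-Akt and 0.80 for c-Myc, against 0.00, -0.02 and 0.00 over all 10679 genes. The 3 comparisons use the same non-transformed array, so they are not independent of each other. In whole-culture RNA, more cells in S phase and more RNA of these genes per cell cannot be told apart. The summed signals of the stellate and fibroblast markers and of the mesothelial markers were lower on the same 3 arrays. That of the biliary and epithelial markers was higher on H-RasV12 and lower on myr-Akt and c-Myc (values above). Single mesothelial markers did not all follow their sum. For H-RasV12 0 of 6 were higher, while for myr-Akt and for c-Myc 2 were higher and 4 lower. Msln gave 7836.5, 3096, 238.3 and 348.0 on the non-transformed, H-RasV12, myr-Akt and c-Myc arrays, and Gpm6a 4314, 267.9, 6812 and 7852. The part of these markers in the differences of the replication genes was not tested.

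For H-RasV12, 39 of 41 genes had a log2 difference above 0, where 50.2% of all genes did. Of the 41, 14 were at least 1.5-fold higher (8.87% of all genes were) and 2 at least 2-fold higher (2.08%), while 0 were 2-fold lower (6.27%). For myr-Akt, 38 were above 0 (46.7% of all genes), 34 at least 1.5-fold higher (16.3%), 11 at least 2-fold higher (4.9%) and 0 lower by 2-fold (12.7%). For c-Myc, 39 were above 0 (47.8%), 33 at least 1.5-fold higher (15.3%), 11 at least 2-fold higher (4.42%) and 0 lower by 2-fold (11.3%). The middle part of the group's distribution, from the lower to the upper quartile, ran from 0.38 to 0.68, from 0.69 to 1.07 and from 0.66 to 1.10 in the 3 comparisons, narrower than that of all genes (-0.30 to 0.29, -0.51 to 0.40 and -0.45 to 0.38). With the mean over all probe sets of a gene in place of the chosen one, the counts at 2-fold were 0, 6 and 2 rather than 2, 11 and 11. Over all 10683 genes so averaged, 154, 341 and 293 were at least 2-fold higher. The 2-fold line cuts through a dense part of the group. In the myr-Akt comparison Cdc45 (1.07) and Pole2 (1.08) were just inside it and Cdc7 (0.99), Orc2 (0.97) and Timeless (0.96) just outside, so counts at 2-fold depend on small differences.

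**Figure D2:**
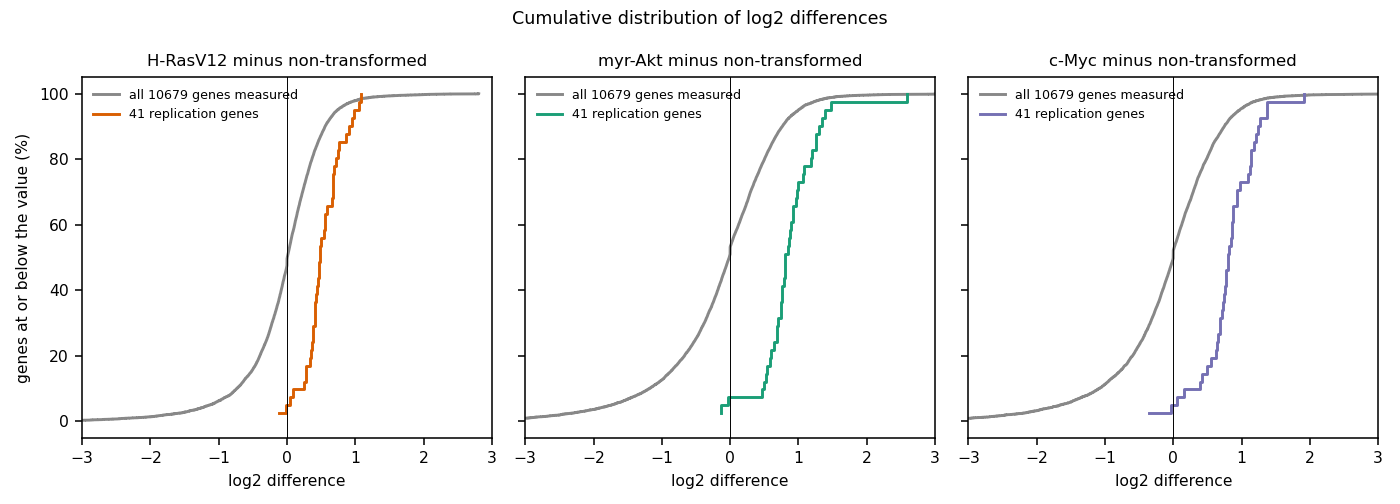
Cumulative share of genes (vertical axis, percent) at or below each log2 difference (horizontal axis) for the 41 replication genes (colour) and all 10679 measured genes (grey), 1 panel for each transformed array against the non-transformed array. The coloured curves are shifted to the right and steeper, with medians of 0.48, 0.80 and 0.80 against 0.00, -0.02 and 0.00.

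Licensing begins with the factors that mark origins and load the helicase, and these had some of the higher differences. Orc1, the cell-cycle-regulated large subunit of the origin recognition complex, had signals of 205.3 on the non-transformed array, 290.1 on H-RasV12, 523.1 on myr-Akt and 497.3 on c-Myc. Its myr-Akt and c-Myc signals were 2.55 and 2.42 times the non-transformed one, while H-RasV12 was intermediate at 1.41 times. Cdc6, the ATPase that recruits Cdt1 and MCM2-7 to the complex, stood at 573.0, 1078, 1588 and 1225 in the same order of arrays, that is 1.88, 2.77 and 2.14 times the non-transformed signal. Cdt1, the helicase chaperone that is destroyed once S phase starts, gave 4158, 6048, 9582 and 10757, or 1.45, 2.30 and 2.59 times. For both Orc1 and Cdt1 the H-RasV12 signal was closer to the non-transformed one than to the other 2 on the log scale.

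The remaining loading genes were higher by less on the myr-Akt and c-Myc arrays, by the chosen probe sets. For H-RasV12 the log2 difference of Orc2 (0.74) was larger than those of Orc1 (0.50) and Cdt1 (0.54). Orc2, a constitutive core subunit, had signals of 658.7, 1099, 1292 and 1206, and Orc6, the smallest subunit, 2035, 2838, 3745 and 3553. By these probe sets both stayed under 2-fold on each transformed array, while a further Orc2 probe set reached a log2 difference of 1.13 for myr-Akt. Gmnn encodes geminin, the inhibitor that binds Cdt1 and blocks a second round of licensing. It had signals of 3694, 4370, 5560 and 6221, with log2 differences of 0.24, 0.59 and 0.75 against 0.54, 1.20 and 1.37 for Cdt1, so the RNA of the loader differed more than that of its inhibitor on all 3 arrays.

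The 6 MCM2-7 genes, whose products form the hexameric helicase in equal numbers, were higher on every transformed array by the chosen probe sets. Their log2 differences ran from 0.39 (Mcm2) to 0.68 (Mcm3) for H-RasV12, from 0.47 (Mcm6) to 1.18 (Mcm5) for myr-Akt and from 0.56 (Mcm4) to 1.14 (Mcm5) for c-Myc, with medians of 0.50, 0.77 and 0.73. Mcm5, which with Mcm2 forms the gate through which DNA enters the ring, had signals of 2966, 4726, 6713 and 6543 on the non-transformed, H-RasV12, myr-Akt and c-Myc arrays. By the chosen probe sets it alone of the 6 passed 2-fold, at 2.26 times for myr-Akt and 2.21 times for c-Myc. Mcm6 had the smallest myr-Akt difference of the 6 at 4992, 6602, 6917 and 7764, and its promoter carries the E2F cluster shown above. Mcm2 gave 1396, 1826, 2438 and 2344, Mcm3 2392, 3827, 4132 and 4353, Mcm4 4060, 5417, 6537 and 5975, and Mcm7 7209, 10797, 12154 and 11835. In all 6 genes the non-transformed array was lowest and the H-RasV12 array the next by the chosen probe sets. A further Mcm6 probe set gave 1561, 1553, 2123 and 2658. By that one H-RasV12 was not higher than non-transformed (log2 difference -0.01).

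**Figure D3:**
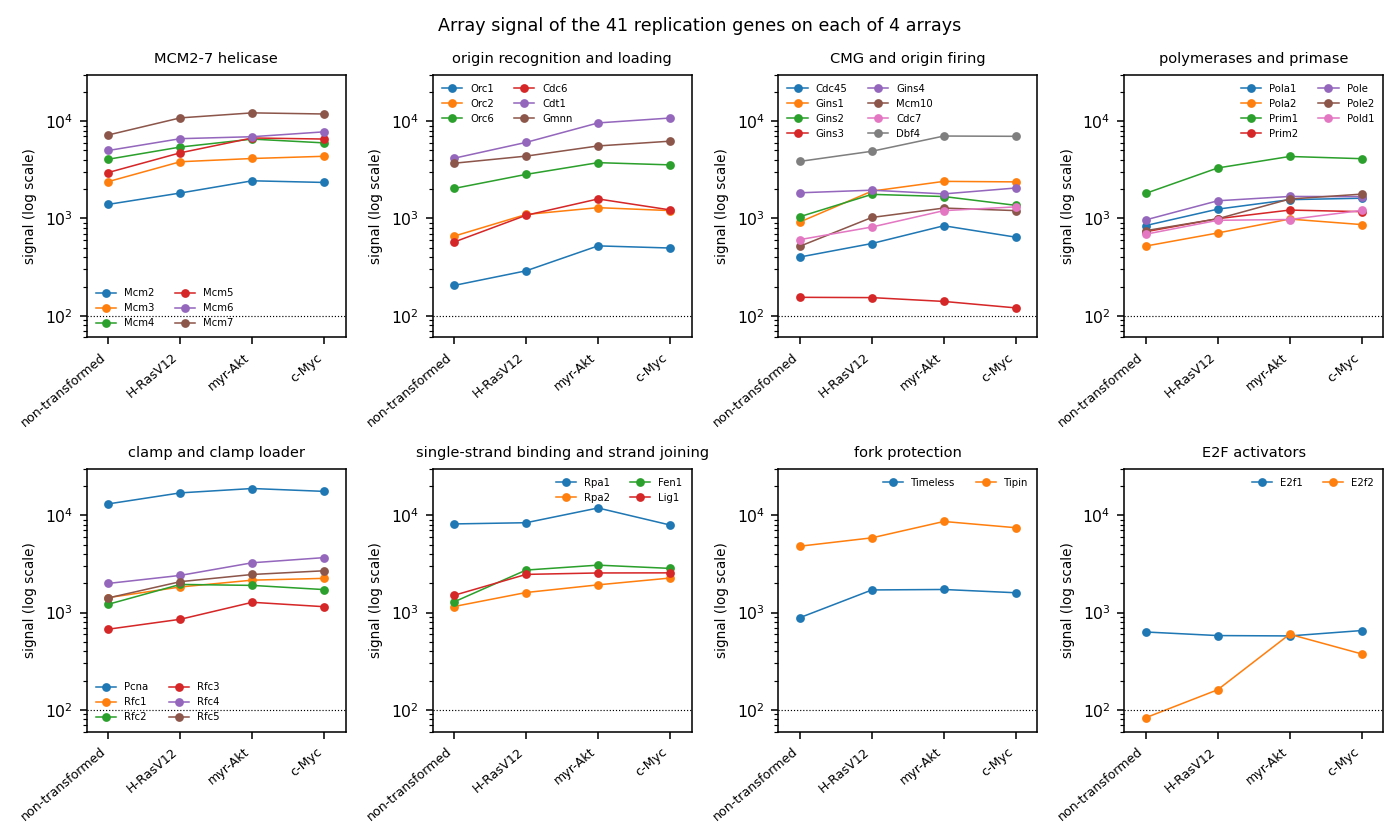
Array signal (vertical axis, log scale) of each of the 41 replication genes on the 4 arrays (horizontal axis), 1 panel for each role; each point is 1 array, lines only join the points of a gene, and the dotted line is the signal floor of 100.001. Most lines climb from non-transformed to H-RasV12 and again to myr-Akt and c-Myc, while Gins3, Gins4 and E2f1 do not; levels of different genes come from different probe sets and are not comparable.

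Genes that convert the loaded helicase into an active fork were split. Gins1, the Psf1 subunit of the GINS complex, had signals of 920.8, 1910, 2405 and 2376, at least 2-fold higher on all 3 transformed arrays (2.07, 2.61 and 2.58 times). Gins2, another subunit of the same complex, was highest on the H-RasV12 array (1044, 1770, 1681 and 1364). Gins4 hardly differed, with signals of 1836, 1953, 1788 and 2056. Gins3 was dim, at 155.0, 153.9, 140.6 and 120.7, and was the lowest of the group in the c-Myc comparison with a log2 difference of -0.36. By the chosen probe sets, the 4 subunits of 1 complex therefore ran from -0.36 to 1.37 in that comparison. The other Gins3 probe set, under the floor in non-transformed cells, went the other way there, at 0.26 or more.

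Other firing factors were higher. Mcm10, which helps the helicase to start unwinding, had signals of 518.9, 1025, 1280 and 1205 (1.97, 2.47 and 2.32 times), and Cdc45, the activator of the helicase, 402.0, 553.3, 841.9 and 642.6 (1.38, 2.09 and 1.60 times). Cdc7, the kinase that triggers firing, stood at 606.8, 817.2, 1204 and 1316. Its regulatory subunit gene Dbf4 gave 3860, 4902, 7028 and 6982, a log2 difference of 0.34 for H-RasV12 and 0.86 for both myr-Akt and c-Myc. For kinase and partner alike, H-RasV12 was the transformed array nearest to non-transformed cells by the chosen probe sets. By the dimmer second Cdc7 probe set c-Myc (0.43) was nearer than H-RasV12 (0.47).

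All 7 genes of the polymerases and primase were higher on each transformed array. Prim1, the catalytic primase subunit that makes the RNA start of every new strand, had signals of 1812, 3302, 4334 and 4114, or 1.82, 2.39 and 2.27 times the non-transformed signal. Its partner Prim2 differed less, with 731.2, 994.9, 1220 and 1176. Pole2, an accessory subunit of the leading-strand polymerase, gave 749.7, 992.8, 1584 and 1779 (1.32, 2.11 and 2.37 times), whereas the catalytic subunit gene Pole gave 967.5, 1520, 1684 and 1677. Pola1 and Pola2, of the polymerase that extends primers, had c-Myc differences of 0.93 and 0.73 and myr-Akt differences of 0.88 and 0.92. Pold1, the catalytic subunit of the lagging-strand polymerase, stood at 689.6, 957.8, 976.1 and 1210 and was the polymerase gene with the smallest myr-Akt difference, 0.50.

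The genes of the sliding clamp and its loader were all higher on each transformed array, with 0 of 6 past 2-fold by the chosen probe sets. Pcna, the clamp that keeps polymerases on DNA, had signals of 13072, 16962, 18806 and 17575, a difference of 0.38, 0.52 and 0.43. Rfc1, the large loader subunit, gave 1425, 1833, 2153 and 2246. Among the small subunits, Rfc3 (675.1, 853.5, 1275 and 1149), Rfc4 (1993, 2409, 3248 and 3670) and Rfc5 (1414, 2078, 2463 and 2688) were highest on the myr-Akt or c-Myc array. Rfc2 was highest on the H-RasV12 array (1218, 1946, 1902 and 1722).

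Genes that protect and finish the new strands followed the same direction with 1 exception. Fen1, the nuclease that trims Okazaki fragments, had signals of 1288, 2734, 3071 and 2844 (2.12, 2.38 and 2.21 times), one of 2 genes past 2-fold for H-RasV12. Lig1, the ligase that seals the trimmed ends, gave 1505, 2467, 2552 and 2559, nearly the same on the 3 transformed arrays. Rpa2, a subunit of the single-strand binding complex RPA, gave 1154, 1607, 1927 and 2263. Its partner Rpa1 did not follow: 8139, 8375, 11868 and 7934, higher on the myr-Akt array (0.54 on the log2 scale) and close to the non-transformed signal on the other 2 (0.04 and -0.04). The second Rpa1 probe set showed the same profile (3271, 3313, 5334 and 3358).

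Timeless and Tipin encode the complex that protects stalled forks. Timeless had signals of 887.3, 1708, 1727 and 1598, with log2 differences between 0.85 and 0.96, so that all 3 transformed arrays were alike. Tipin gave 4808, 5856, 8625 and 7440, with differences of 0.28, 0.84 and 0.63.

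The 2 E2F activators differed from each other. E2f1, the activator best known for driving S-phase entry, had signals of 631.9, 580.6, 575.6 and 653.8, log2 differences of -0.12, -0.13 and 0.05. E2f2 lay at 83.2 on the non-transformed array, under the floor, and at 161.2, 599.0 and 376.2 on the H-RasV12, myr-Akt and c-Myc arrays. Measured from the floor, it was at least 1.61, 5.99 and 3.76 times higher. It passed the filter on low values through the transformed arrays alone, so it could only come out higher. The second E2f2 probe set gave 83.8, 84.5, 195.7 and 165.1, above the floor on the myr-Akt and c-Myc arrays alone.

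**Figure D4:**
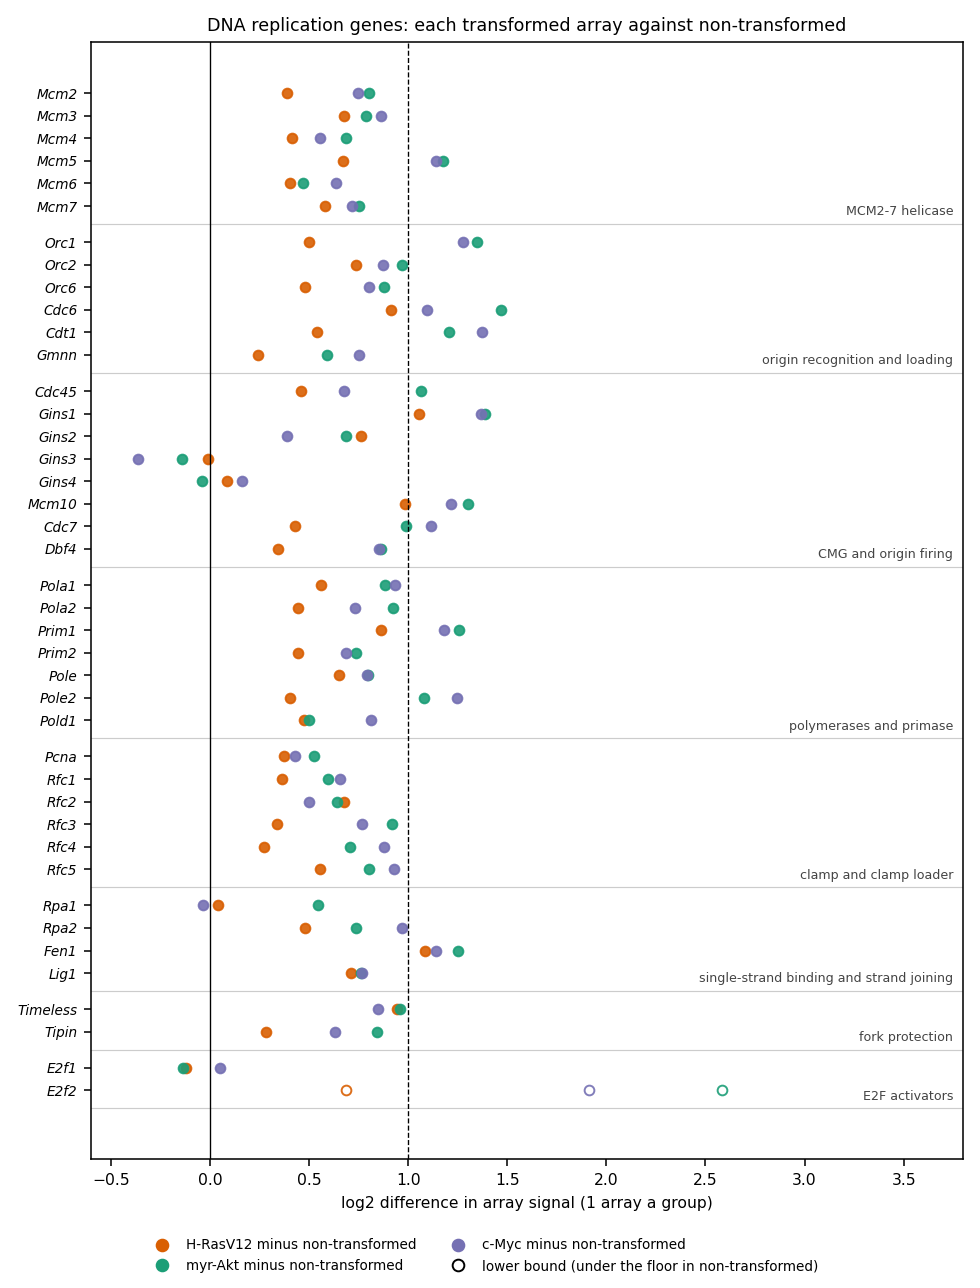
Log2 difference in signal (horizontal axis) of each of the 41 genes, by role, for H-RasV12 (orange), myr-Akt (green) and c-Myc (purple) against the non-transformed array; each point is 1 array against 1 array, open circles are lower bounds, and the dashed line marks 2-fold. Most points lie to the right of 0, the orange points are usually leftmost, and Gins3, Gins4 and E2f1 lie near or below 0.

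The medians of members with and without an E2F match were close, and the counts past 2-fold were less so. The 14 with a match had median log2 differences of 0.55, 0.90 and 0.90 for H-RasV12, myr-Akt and c-Myc, and the 18 without one 0.45, 0.87 and 0.85. At least 2-fold higher were 6 of the 14 (42.9%) and 4 of the 18 (22.2%), for myr-Akt and for c-Myc alike. For H-RasV12 0 of 14 and 1 of 18 were. The 6 include E2f2, which could only come out higher. Over all genes 4.9%, 4.42% and 2.08% were at least 2-fold higher for myr-Akt, c-Myc and H-RasV12. At 1.5-fold, 11 of 14 (78.6%) and 15 of 18 (83.3%) were higher for myr-Akt, against 16.3% of all genes. For c-Myc 13 (92.9%) and 15 (83.3%) were, against 15.3%, and for H-RasV12 5 (35.7%) and 5 (27.8%), against 8.87%. Gins3 has a match and was not higher by its chosen probe set, though it was by its other one. Fen1 and Prim1, without a match in this window, passed 2-fold by their chosen probe sets. Outside the group, 427 measured genes with a match had medians of 0.10, 0.18 and 0.18, and 8266 without one 0.00, -0.02 and -0.01. Of those 427 genes, 25.1% were at least 1.5-fold higher on the myr-Akt array, against 16.0% of the 8266. For c-Myc the shares were 21.5% and 15.1%, and for H-RasV12 8.20% and 8.65%. At 2-fold they were 4.92% and 4.80% for myr-Akt, 5.62% and 4.20% for c-Myc, and 0.703% and 1.88% for H-RasV12. These are counts over genes on single arrays and carry no test.

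The transformed arrays were also set against each other. On the myr-Akt array the median of the group was 0.32 above that on the H-RasV12 array. In that comparison 1 gene, E2f2, was at least 2-fold higher (4.38% of all genes were), and 5 were at least 1.5-fold higher (12.1%), namely Orc1 (0.85), Cdt1 (0.66), Cdc45 (0.61), Pole2 (0.67) and E2f2 (1.89). On the c-Myc array the median was 0.29 above H-RasV12, with 1 gene, again E2f2 (1.22), past 2-fold (5.11% of all genes) and 6 past 1.5-fold (12.5%): Orc1 (0.78), Cdt1 (0.83), Cdc7 (0.69), Pole2 (0.84), Rfc4 (0.61) and E2f2. These counts are close to the background shares or under them. The quartiles of the group ran from 0.15 to 0.51 for myr-Akt minus H-RasV12 and from 0.13 to 0.43 for c-Myc minus H-RasV12, against -0.36 to 0.31 and -0.32 to 0.33 over all genes, so the group differed from H-RasV12 by a small amount in many genes.

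Between c-Myc and myr-Akt the group barely differed. The median log2 difference, c-Myc minus myr-Akt, was -0.05, and the genes ran from -0.67 (E2f2) to 0.31 (Pold1). None of the 41 was at least 2-fold higher (2.01% of all genes were) or at least 1.5-fold higher (6.19%), and 1, E2f2, was at least 1.5-fold lower (4.53%). Rpa1 (-0.58), Cdc45 (-0.39) and Cdc6 (-0.37) came next, each higher on the myr-Akt array. Without replicate cultures, none of these gaps can be set against the spread within a group.

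A second reading of the same RNA came from further probe sets. Of the 41 genes, 32 had at least 1, 47 in all, of which 28 (on 22 genes) exceeded the floor on all 4 arrays and 12 on none. Of those 28, 26 were above 0 for H-RasV12, 27 for myr-Akt and 27 for c-Myc, with medians of 0.56, 0.86 and 0.83 against 0.56, 0.75 and 0.79 for the chosen probe sets of the same genes. The median gap between the paired values was 0.09, 0.14 and 0.22. For Mcm5 the brighter further probe set gave 0.69, 1.39 and 1.28, each larger than the chosen one's value. For Cdt1 it gave 0.45, 1.19 and 1.62 against 0.54, 1.20 and 1.37, so that the c-Myc value alone was larger. For others the 2-fold call rested on the chosen probe set: Fen1 gave 0.72, 0.82 and 0.73 by its other probe set, Prim1 0.67 for c-Myc, and Cdc7 0.43 for c-Myc. Conversely, some genes passed 2-fold by a further probe set and not by the chosen one. These were Mcm7 (1.01 for myr-Akt and 1.09 for c-Myc), Timeless (1.07 and 1.09) and Prim2 (1.02 and 1.04) in both comparisons, Orc2 (1.13) and Mcm3 (1.02) for myr-Akt, and Rfc4 (1.07) for c-Myc. The 2 Gins3 probe sets disagreed: the other one, under the floor in non-transformed cells, gave at least 0.52, 0.60 and 0.26 on the log2 scale where the chosen one gave -0.01, -0.14 and -0.36. The other Gins1 probe set was under the floor on all arrays, and Cdc6 has no other, so their values rest on 1 probe set each. Both bright E2f1 probe sets were flat, the other one giving -0.09, -0.19 and -0.25.

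**Figure D5:**
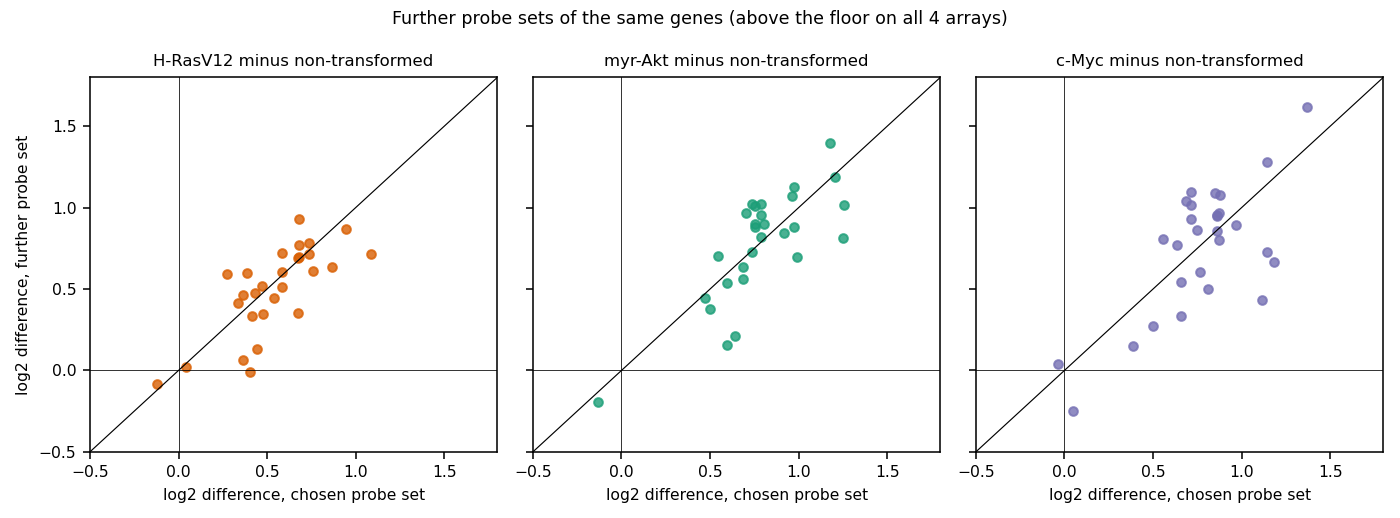
Log2 difference by each further probe set (vertical axis) against that by the chosen probe set of the same gene (horizontal axis) for the 28 further probe sets above the floor on all 4 arrays, 1 panel for each transformed array against non-transformed; the diagonal marks equal values. Most points lie near the diagonal and above 0, with a median gap of 0.09, 0.14 and 0.22.

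Lists of related genes, grouped by function, had medians above 0 in each comparison with non-transformed cells. These medians were under the group's 0.48, 0.80 and 0.80, except that of dNTP supply for H-RasV12 (0.51). Over all genes, 2.08%, 4.9% and 4.42% were at least 2-fold higher for H-RasV12, myr-Akt and c-Myc, and 6.27%, 12.7% and 11.3% lower. These shares are the background for the counts of every list below. Of 33 further replication factors with a probe set, 1, 4 and 6 were at least 2-fold higher and 0, 1 and 1 lower. Their medians were 0.39, 0.60 and 0.62. Dna2, a nuclease and helicase that processes Okazaki flaps, gave 254.6, 467.4, 1044 and 1018, Ticrr (treslin, which helps load Cdc45) 247.4, 338.1, 594.1 and 610.4, and Wdhd1 (And-1, which ties polymerase alpha to the helicase) 562.8, 1223, 1310 and 1157. Pold4, the small subunit of the lagging-strand polymerase, went the other way: 1453, 1457, 249.8 and 410.8, or 5.82 and 3.54 times lower for myr-Akt and c-Myc with no difference for H-RasV12.

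Among 14 regulators of E2F activity, 0, 1 and 1 were at least 2-fold higher and 1, 0 and 0 lower, with medians of 0.29, 0.26 and 0.52. Mybl2, an E2F target and activator of mitotic genes, had differences of 0.42, 1.12 and 1.13, and Rb1, the retinoblastoma protein gene that restrains E2F, stood at 329.9, 145.6, 363.4 and 345.3, lowest on the H-RasV12 array. Of 12 S-phase cyclin and CDK genes, 0, 3 and 2 were at least 2-fold higher and 0, 1 and 1 lower (medians of 0.39, 0.72 and 0.58). The higher ones named by rule were Ccne2 (0.50, 1.10 and 1.01), Ccna2 (0.40, 1.03 and 1.03) and Cdc25a (0.74, 1.09 and 0.92). Ccnd1, the cyclin D1 gene that links growth factor signals to the retinoblastoma protein, gave 7334, 13638, 517.4 and 514.4, so it was 14.2 and 14.3 times lower on the myr-Akt and c-Myc arrays.

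Genes of dNTP supply, mitosis and the checkpoint were set beside the group. The 14 dNTP genes measured had medians of 0.51, 0.75 and 0.71 with 2, 5 and 5 at least 2-fold higher, among them Umps (1.21, 1.52 and 1.58), Cad (0.93, 1.41 and 1.68), Dhodh (0.66, 1.34 and 1.64) and Shmt1 (1.21, 1.39 and 2.60). The 31 mitosis genes had medians of 0.33, 0.63 and 0.61 with 0, 2 and 2 at least 2-fold higher and 0, 0 and 1 lower, among them Espl1 (0.70, 1.35 and 1.35), Bub1b (0.60, 1.30 and 1.08) and Pttg1 (-0.14, -0.60 and -1.01). The 10 checkpoint genes had medians of 0.11, 0.67 and 0.62, with Chek1, the kinase that answers to stalled forks, at 0.73, 1.39 and 1.25 and Hus1 at 0.47, 0.81 and 1.02. The replication genes had a larger median than the mitosis genes in all 3 comparisons, a difference that was not tested.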

How the data were processed

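RNA of 4 cultures was measured on 4 single-colour arrays, 1 per group, with 45101 probe sets. The authors deposited linear MAS5 intensities, per the submitters' processing notes. The sources used here do not give the software version, detection calls or genome build. Each array already had a 2% trimmed mean of 500.003. Each array was scaled to the same trimmed mean, and 20% of it (100.001) served as a floor under all signals before taking log2. A gene at the floor on 1 side has only a bound. Of the probe sets, 34945 non-control ones carried 1 gene symbol, giving 18193 genes, 10679 of them above the floor on at least 1 array. Probe sets ending in _s_at or _x_at can bind several transcripts, and 6 of the chosen ones do. A gene was called at 2-fold, with 1.5-fold as a second threshold. The members, lists, motifs and thresholds were chosen with earlier results of these data known. All members were named, and up to 4 genes per other list past 2-fold. With 1 array per group, the number of arrays sets the precision and no test was possible. The calling step was tested on simulated data, with an assumed noise and with changes larger than 2-fold placed on bright genes only. It does not measure how reliable the calls near 2-fold are here. Analyses used Python 3, pandas 2.3.3 and numpy 2.4.6. Promoter sequences are RefSeq's, matched by symbol.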

Additional observations from a re-analysis of the deposited data

How the results depend on the processing

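The direction of the group's median was kept under all alternatives run, in each of the 6 comparisons. The counts of genes at least 2-fold higher moved more, because many genes lie close to that line. With the mean over all probe sets of a gene, which brings in probe sets at the floor, 0, 6 and 2 of 41 were at least 2-fold higher for H-RasV12, myr-Akt and c-Myc against non-transformed (2, 11 and 11 as reported), and 0 for c-Myc against H-RasV12 (1 as reported). Over all 10683 genes under that setting, 154, 341 and 293 were at least 2-fold higher against non-transformed, and 372 for c-Myc against H-RasV12. Without _s_at and _x_at probe sets the count for H-RasV12 was 1, and with a pseudocount of 100 in place of the floor it was 1, with 0 for c-Myc against H-RasV12. With the floor raised to 40%, c-Myc against H-RasV12 had 0. With genes above the floor on all 4 arrays, which leaves out E2f2, it had 0, as did myr-Akt against H-RasV12. Of the 40 genes then left, 10 were at least 2-fold higher for myr-Akt and 10 for c-Myc against non-transformed. Over all 8965 genes of that setting, 452 and 405 were. At 1.5-fold the counts were 14, 34 and 33 against non-transformed, 5 and 6 against H-RasV12, and 1 lower gene for c-Myc against myr-Akt. A window of the 150 bases before the start site leaves out the bases after it, where 9 of the 20 E2F matches lay. In that shorter window, 7 of 32 promoters held an E2F match (21.9%, against 2.83% of measured genes) and 16 a CCAAT box (50.0%, against 32.4%). A CHR element was in 4 (12.5%, against 7.58%) and an E-box in 2 (6.25%, against 7.56%). The members' share with an E-box was thus under the background there and above it in the 300 bases. With a 40% floor, E2f2 differed by 0.00, 1.58 and 0.91 from non-transformed, as its lowest values are cut off higher. Each group has 1 array, so leaving out a replicate could not be done. No paired analysis was possible because each group holds 1 sample and the labels carry no replicate number.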
